A study of Danio rerio with 2 samples.

Results

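Mitochondria make most of a resting cell's ATP by passing electrons along a chain of large protein complexes in the inner membrane. Complex I takes electrons from NADH, Complex III hands them to cytochrome c, and Complex IV passes them to oxygen, while the proton gradient that builds up drives the ATP synthase. A few core subunits are made from the mitochondrial genome, but most subunits are encoded in the nucleus, and some of these, above all in Complex IV, come as alternative isoforms that mammals use in different tissues. The genes described here are the nuclear ones of Complexes I, III and IV and of the ATP synthase in zebrafish heart endocardial and blood cells.

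Membership was set by gene symbol alone. Of the 32057 genes listed, 93 had a symbol that began with nduf and one of the letters a, b, c, s or v, with uqcr, with cox and a digit from 4 to 8, or with atp5, and 91 of these had at least 10 unique molecular identifiers (UMIs, each standing for a captured transcript) over both libraries. A total of 18077 genes of all kinds reached that minimum. Below it lay *ndufa9b* with 6 UMIs and *ndufs8b* with 0. Just above it lay *cox4i1l* and *ndufs1* with 13 each, *ndufa4l2b* with 19, *cox5b2* with 36 and *cox6a2* with 45. Complex I had 42 members, among them 7 assembly factors whose symbols begin with ndufaf, Complex III had 8, Complex IV had 22 and the ATP synthase had 19. The 4 members of the *ndufa4* family were counted with Complex IV, where the human protein is now placed. Genes of the same families that the files write in capitals, such as *COX5B*, *COX7A2* and *NDUFB1*, fall outside the rule.

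The study dissected hearts from zebrafish with 2 reporters, Tg(kdrl:nls-mCherry), whose promoter drives a nuclear reporter in vascular endothelium as well as endocardium, and Tg(cd41:GFP), which marks thrombocytes and blood progenitors. Cells positive for mCherry alone and cells positive for both were sorted from pooled hearts and combined before sequencing from the 3′ end. There was 1 library from 48 hours post fertilization (hpf) and 1 from 72 hpf, with no treatment or mutation in the labels. The titles read EC-2d and EC-HC-3d, so the sort may differ between the ages, and numbers of blood cells are not compared. The 48 hpf library held 2665 cells and 30735426 UMIs, with a median of 10411 per cell. The 72 hpf library held 4125 cells and 33721297 UMIs, with a median of 6316. Only 4 barcodes occurred in both. With 1 library per age there are no replicates, so no test was run, the age cannot be told apart from the library, and every 95% interval covers counting error only.

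Cells were grouped by clustering and named from marker lists, so each name stands for cells like that type, and the names may differ from the study's. Chamber endocardial cells numbered 612 at 48 hpf and 1962 at 72 hpf, valve endocardial cells 294 and 366, lymphatic-like cells 193 and 118, and blood cells 15 and 388. Valve interstitial cells numbered 344 at 72 hpf and 2 at 48 hpf. The naming of the 48 hpf chamber cells was weak, resting on 4 of the 22 chamber genes among the 50 leading genes of their main cluster, where 6 S-phase genes also stood. No name was given to 995 cells of the younger and 481 of the older library, with shares of 1.37% and 1.48% of UMIs in the 91 genes. Depth differed between groups: the median was 18205.5 UMIs per cell in blood and 5555.5 in chamber cells at 72 hpf, and 9959.5 in chamber cells at 48 hpf.

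Blood cells stood above every endocardial group in the share of their transcripts that came from these genes. The 91 genes took 2.93% of UMIs in blood cells at 72 hpf (95% interval 2.92 to 2.95%), 1.27% in chamber cells (1.27 to 1.28%), 1.49% in valve endocardial cells (1.475 to 1.505%), 1.44% in valve interstitial cells (1.43 to 1.45%) and 1.19% in lymphatic-like cells (1.16 to 1.22%). At 48 hpf the order of valve endocardial, chamber and lymphatic-like cells was the same, with 1.53%, 1.31% and 1.27%. The 15 blood cells of that age gave 1.71% (1.67 to 1.75%), less than the 72 hpf blood cells, though the 2 sets differed in their cell types. Of the 403369 UMIs of these 15 cells, 79992 lay in 1 erythroid-like cell, which held 390 of their 6886 UMIs in the 91 genes. The pooled 48 hpf value thus leans on that cell. The median share per blood cell was 1.75% at 48 hpf and 2.52% at 72 hpf. Vessel and outflow endothelial cells gave 1.28% in 65 cells of 48 hpf and 1.66% in 187 of 72 hpf.

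**Figure D1:**
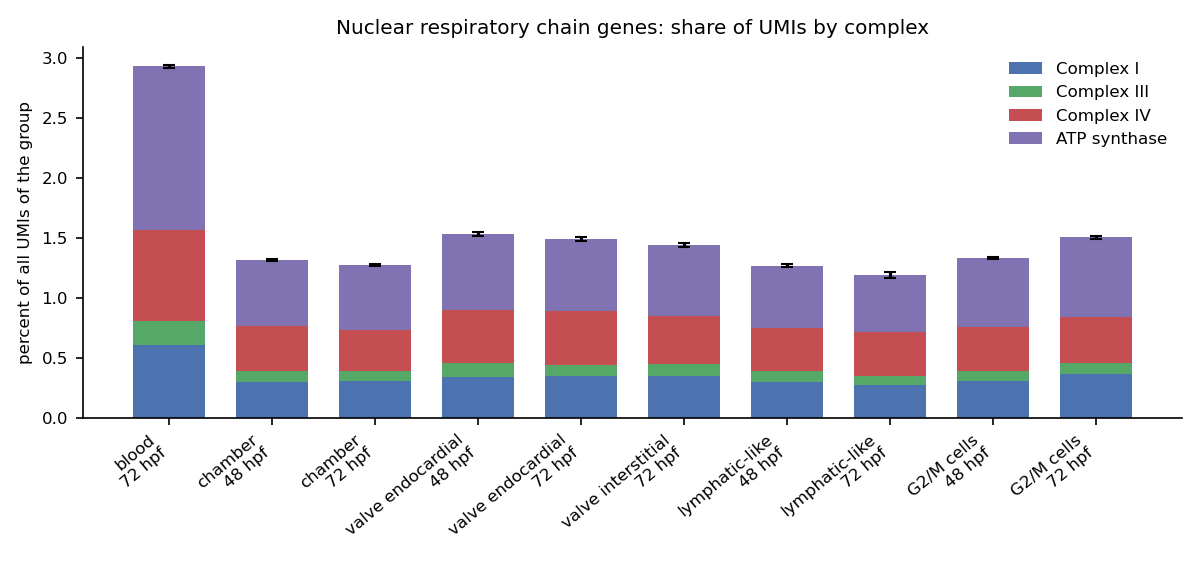
Share of all UMIs, in percent, taken by the nuclear genes of Complex I, Complex III, Complex IV and the ATP synthase, stacked by group of cells and library, without the 15 blood cells of 48 hpf and the vessel cells; lines at the bar tops are 95% counting intervals of the sum. The bar of the 72 hpf blood cells reaches 2.93%, and the bars of the chamber, valve and lymphatic-like cells lie between 1.19% and 1.53%.

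The ATP synthase took the largest part in every named group, followed by Complex IV, Complex I and Complex III. In chamber cells at 72 hpf the ATP synthase genes held 0.542% of UMIs, Complex IV 0.343%, Complex I 0.303% and Complex III 0.0870%. In blood cells of the same library they held 1.37%, 0.761%, 0.605% and 0.202%. The ratio of blood to chamber was thus 2.53 for the ATP synthase (2.50 to 2.55) and 2.32 for Complex III (2.26 to 2.37). It was 2.22 for Complex IV (2.19 to 2.24) and 2.00 for Complex I (1.97 to 2.03), so all 4 complexes lay on the same side. These sums leave out the genes written in capitals, among them the abundant *COX5B* of Complex IV. The order of the ratios was not recomputed with them. The ratios also cover cells of all depths. In the band of nearer depth described below, the ATP synthase held 0.984% in blood and 0.614% in chamber cells at 72 hpf. Complex IV held 0.592% and 0.366%, Complex III 0.148% and 0.0993%, and Complex I 0.445% and 0.336%. All 4 were still higher in blood, each by less than 2-fold. Complex I kept the lowest ratio, but Complex III no longer stood above Complex IV.

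A few genes carried much of each sum. Over both libraries the 5 highest members held 21.8% of the members' UMIs and the 20 highest held 57.7%, while the 6 members under 100 UMIs held 0.0222%. Levels are given below as CPM, which is the gene's part of a group's summed UMIs, multiplied by 1000000. Because each transcript is tagged once at its 3′ end, CPM does not scale with transcript length. The highest ATP synthase genes over all cells were *atp5mc3b* (877 CPM, ENSDARG00000009447), a subunit c of the rotor ring, *atp5f1b* (741 CPM), the catalytic β subunit, and *atp5fa1* (541 CPM), the α subunit. In Complex IV they were *cox4i1* (639 CPM), *cox7c* (572 CPM) and *cox6b2* (488 CPM). Complex III was led by the hinge protein gene *uqcrh* (299.6 CPM), by *uqcrq* (201 CPM) and by *uqcrfs1* (158 CPM), which encodes the Rieske iron-sulfur protein. In Complex I the accessory subunit genes *ndufb8* (185 CPM), *ndufc2* (158 CPM) and *ndufa1* (156 CPM) led.

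Between blood and chamber cells at 72 hpf the pooled share of the 91 genes differed 2.30-fold (2.29 to 2.32). Of the 91 members, 87 were higher in blood and 4 lower, and 83 of the higher ones and 3 of the lower ones had an interval that left out 1. The interval count depends on the number of UMIs and was not made over all genes. It is thus not read as a trait of the members. A member was counted as past the fold only where it reached 10 CPM in either group and a ratio of 2. On that rule 82 members were read, 55 were at least 2-fold higher in blood (67.1%) and 1, *cox4i2*, at least 2-fold lower. Among all 7534 genes that reached 10 CPM in either group, 26.8% were at least 2-fold higher in blood and 30.9% at least 2-fold lower. The median ratio was 2.26 over the 82 members and 1.01 over all genes read. The other 9 members lay under 10 CPM in both groups. These were *ndufs1*, *ndufaf6*, *ndufaf7*, *cox4i1l*, *cox5b2*, *cox6a2*, *cox8b*, *ndufa4l2a* and *ndufa4l2b*, of which the last 2 had no UMI in blood and 7 and 10 UMIs in chamber cells.

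The difference moved with depth. When the 72 hpf blood cells were ranked by UMIs and split into 4 equal bins, the member share was 1.94%, 2.50%, 2.81% and 3.43% from the shallowest to the deepest bin. In chamber cells of that library it went from 1.114% to 1.399%. In cells of 8000 to 16000 UMIs in both groups, a band set after these values were seen, the share was 2.17% in 86 blood cells and 1.42% in 299 chamber cells, a ratio of 1.53. The medians in that band were 11779 and 9627 UMIs, so depth was nearer but not equal. Of 82 members read there, 11 were at least 2-fold higher in blood (13.4%), where 17.9% of all 7577 genes read were, so the count of members past the fold was not above that of all genes. The median ratio was 1.52 over these members and 0.979 over all genes. An exception was the group of blood cells led by *tmem88a*, a gene of the chamber list, which had 1.39% in 9 cells of that band. The part of cell size or cell type in the relation with depth was not tested.

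**Figure D2:**
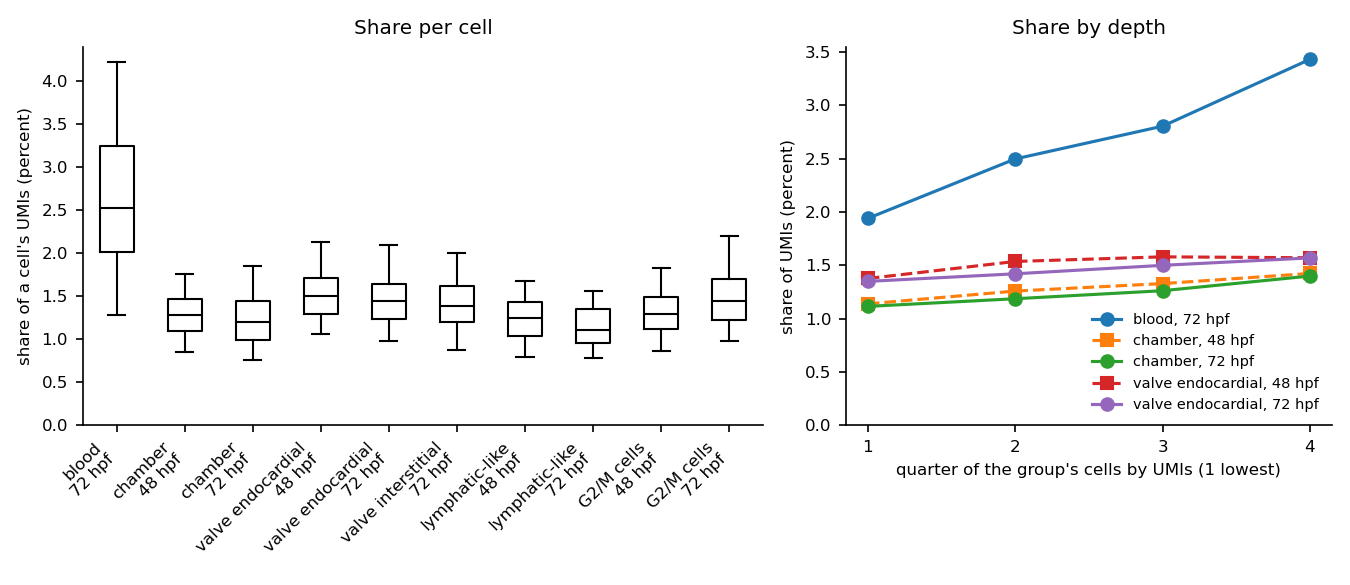
Left, the share of UMIs in the 91 genes per cell, in percent, with boxes from the first to the third quartile, the median as a line and whiskers at the 5th and 95th percentiles. Right, the pooled share in 4 equal bins of cells ranked by UMIs, in which blood at 72 hpf climbs from 1.94% to 3.43% and chamber at 72 hpf from 1.114% to 1.399%.

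Cell by cell, the 2 groups overlapped at their edges. The quartiles of the 72 hpf blood cells were 2.01%, 2.52% and 3.25%, and 358 of the 388 (92.3%) lay above the upper quartile of the chamber cells at 1.44%. Only 16 lay above every chamber cell. The shares of the blood cells were also uneven among their own groups, found by clustering blood cells alone. The highest share was 3.28% in the 97 cells led by *rasl11b* and *slc25a1a*, followed by 3.11% in the 57 cells led by *runx3* and *ccr9a*, and 3.04% in the 47 cells led by mitotic genes such as *ccnb1*. The 62 thrombocyte-like cells had 2.35%, the 60 cells led by *mpx* and *col5a3a* had 2.39%, the 25 cells led by *tmem88a* had 2.31%, the 23 macrophage-like cells had 2.89% and the 17 erythroid-like cells had 2.81%. Over cells of all depths, all of these groups at 72 hpf lay above every endocardial group. The 7 neutrophil-like cells, all from 48 hpf, had 1.73%. In the band of nearer depth described above, the order differed, on 5 to 24 cells per group. There the *rasl11b* group had 2.88%, macrophage-like cells 2.78%, the mitotic group 2.68% and thrombocyte-like cells 2.26%. The *mpx* group had 2.08%, the *runx3* group 2.00% and the *tmem88a* group 1.39%. Chamber cells had 1.42% there, valve endocardial 1.56%, valve interstitial 1.51% and lymphatic-like cells 1.29%.

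**Figure D3:**
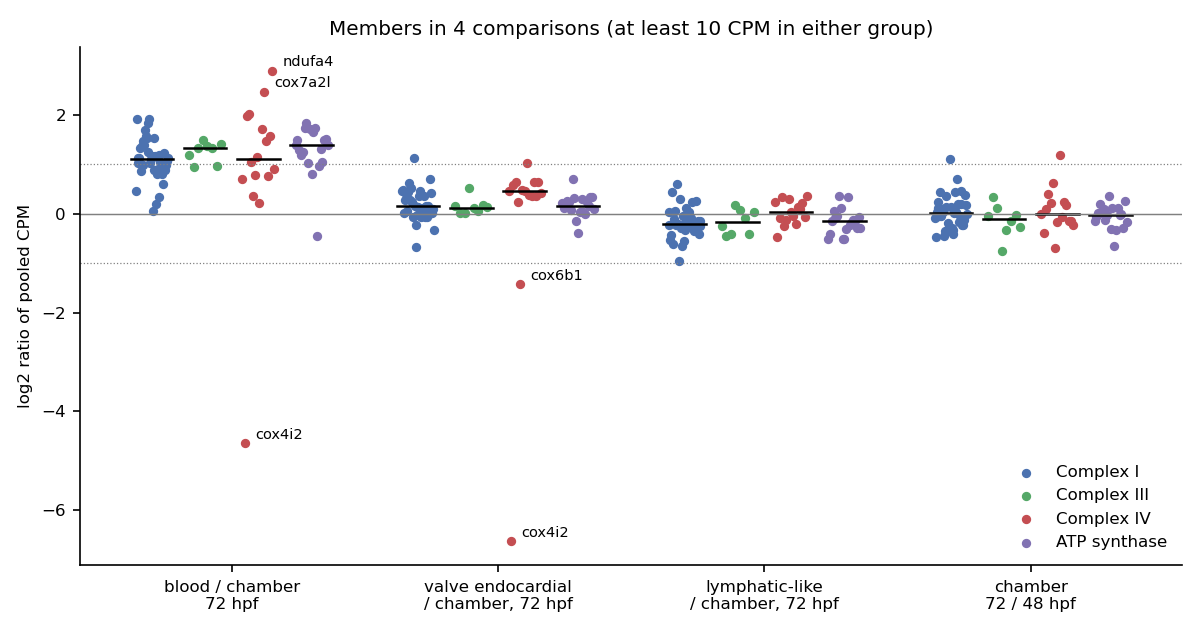
Ratios of CPM on a log2 scale for each member that reached 10 CPM in either group, by complex, in 4 comparisons: blood, valve endocardial and lymphatic-like cells over chamber cells at 72 hpf, and chamber cells at 72 over 48 hpf. Points are members and bars are medians; the blood points lie mostly above 1 on the log2 scale and those of the other 3 comparisons lie around 0.

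The 3 members with the largest ratios in the blood comparison were all counted with Complex IV. The gene *ndufa4* stood at 11.6 CPM in blood and 1.56 in chamber cells, a ratio of 7.42 (4.47 to 12.9) that rested on 84 and 19 UMIs. It reached 10 CPM only in blood, where it was higher. Its level was uneven among blood groups, from 0 in thrombocyte-like to 51.3 CPM in macrophage-like cells. The gene *cox7a2l*, whose human counterpart helps join Complexes III and IV into supercomplexes, stood at 304 against 55.03 CPM (ratio 5.53, 5.07 to 6.04). Both copies of the *cox5a* gene, which encodes a subunit on the matrix side of Complex IV, were higher, *cox5ab* at 362 against 89.4 CPM (4.05) and *cox5aa* at 750.1 against 192 CPM (3.91). In cells of 8000 to 16000 UMIs the ratio was 2.28 for *ndufa4*, 2.59 for *cox7a2l* and 2.21 for *cox5ab*, their lowest under the 13 other settings tried. The highest values were 22.2, 6.41 and 4.75, so each stayed above 2.

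The most abundant members of each complex were all higher in blood. The gene *atp5mc3b* stood at 2172 against 694 CPM, *atp5f1b* at 1503 against 574 and *atp5fa1* at 1049 against 441. The Complex III gene *uqcrq* stood at 404 against 153 CPM and *uqcrfs1* at 314 against 126, with *uqcrh* at 509.7 against 260.6. The leading genes of Complexes I and IV stood at 308 against 166 CPM for *ndufb8*, 215 against 170 for *ndufc2*, 185 against 135 for *ndufa1*, 921 against 566 for *cox4i1* and 812 against 479.5 for *cox7c*. At the lower end *ndufb2*, an accessory subunit of Complex I, was at 147 against 142 CPM (1.03, 0.957 to 1.12), and other settings took its ratio from 0.754 to 1.16. The 2 ATPase inhibitor genes, whose protein holds back ATP breakdown by the synthase, were both higher in blood, *atp5if1a* at 406 against 122 CPM and *atp5if1b* at 289 against 81.6.

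Other genes of mitochondria and energy use were read from lists in the same comparison, against the 26.8% of all genes at least 2-fold higher. The list counts and pooled ratios, here and in the next paragraph, cover cells of all depths. None was recomputed in the band of nearer depth described above. In that band 13.4% of the members were at least 2-fold higher in blood, where 17.9% of all genes were. Whether the list results hold at nearer depth was not tested. Of the mitochondrial ribosome, 73 of 74 genes were at least 2-fold higher in blood, with a pooled ratio of 3.48. For cytochrome c and the cytochrome c1 gene of Complex III the pooled ratio was 3.53 (3.38 to 3.69), and *cycsb* (576 against 144 CPM) and *cyc1* (280 against 98.2) were both past the fold, of 2 read. In Complex II, which feeds electrons from succinate, 4 of 7 were past it, namely *sdhb*, *sdhdb* and the assembly factors *sdhaf2* and *sdhaf3*, with a pooled ratio of 1.97. Of the assembly factors of Complexes III and IV 9 of 15 were, with a pooled ratio of 2.21, and of the citric acid cycle 5 of 15 were and *dld* was lower, with a pooled ratio of 2.17.

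Glycolysis gave 6 of 15 past the fold and a pooled ratio of 1.81, with *hk2* at 40.6 against 3.61 CPM and *ldhba* at 581 against 81.6. Among the regulators of mitochondrial genes 2 of 7 were past it, the coactivator gene *ppargc1b* (36.4 against 6.41 CPM) and *tfb2m* (56.6 against 9.86), a factor for transcription of mitochondrial DNA. The list of uncoupling proteins and carriers had 1 of 4 past the fold and a pooled ratio of 0.776, set by the ADP/ATP carrier gene *slc25a5* at 5285 against 7460 CPM. The 1 past the fold was *ucp3*, at 25.1 CPM in blood and 0 UMIs in chamber cells. The counts for the regulators (2 of 7) and for the uncoupling proteins and carriers (1 of 4) lay near the 26.8% of all genes. The cytosolic ribosome took 38.0% of UMIs in blood and 30.6% in chamber cells, with 4 of 87 genes past the fold upward and 2 downward. Embryonic globins, which define red cells, took 1.38% of the pooled blood UMIs, with 8 of 8 past the fold, but the median blood cell had 0.0476% and the upper quartile was 0.0965%. Leaving out the globin UMIs gave a member ratio of 2.33 in place of 2.30, and leaving out ribosomal protein UMIs gave 2.58.

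Valve endocardial cells lay slightly above chamber cells. The ratio of the pooled shares was 1.17 at 72 hpf (1.16 to 1.18) and 1.17 at 48 hpf (1.15 to 1.18), and it was 1.103 among the cells of 8000 to 16000 UMIs at 72 hpf. At 72 hpf 67 of the 91 members were higher in valve endocardial cells and 24 lower. Of 79 that reached 10 CPM, 2 were at least 2-fold higher and 2 at least 2-fold lower, where 11.9% and 10.4% of all genes were. The median ratio was 1.13 over these members and 1.05 over all genes read. Complex IV differed most of the complexes, with 0.454% of UMIs in valve endocardial and 0.343% in chamber cells.

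The members past the fold in valve cells were *ndufaf1*, an assembly factor of Complex I (48.7 against 22.3 CPM, ratio 2.18, 1.75 to 2.70), *cox7a1* (2.02) and, downward, *cox4i2* and *cox6b1*. Both upward ratios fell under 2 in some of the 13 other settings, to 1.63 for *ndufaf1* and 1.46 for *cox7a1*. The Complex I genes *ndufs6* (86.0 against 53.1 CPM, 1.62) and *ndufaf5* (8.44 against 13.5 CPM, 0.623, 0.380 to 0.975) were the next at either end. Valve interstitial cells, which are fibroblast-like cells of the cushions, had a pooled ratio to chamber cells of 1.13 (1.12 to 1.14).

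Heart muscle is rich in respiratory chain transcripts, so cardiomyocyte genes were read beside these values. The 24 genes of a cardiomyocyte list summed to 1639 CPM in valve endocardial cells at 72 hpf (1150 in the younger library), to 324 in chamber cells (90.4), and, at 72 hpf, to 520 in valve interstitial, 21.6 in lymphatic-like and 7.72 in blood cells. In valve endocardial cells at 72 hpf 13 of the 24 had a UMI and the sum lay almost wholly in *tnnt2a* (838 CPM) and *mb* (770 CPM), while *myl7* was at 0.767 CPM and *myh6*, *nppa*, *nppb* and *actc1b* were at 0. Cells of a group were split into 5 equal bins by that sum. In valve endocardial cells at 72 hpf the member share of the bins lay between 1.45% and 1.52%. It was 1.499% in the bin lowest in these genes and 1.523% in the highest. In chamber cells at 72 hpf it lay between 1.26% and 1.29%, with 1.268% in the highest bin. The first 3 of these chamber bins each had a sum of 0 CPM, so their order is arbitrary and a rise across them could not be read. In the 48 hpf valve endocardial cells it lay between 1.42% and 1.62%, with 1.467% in the lowest bin and 1.596% in the highest. In these younger valve cells the second bin had 1.42%, the third 1.54% and the fourth 1.62%. With the tenth of all cells highest in these genes left out, the valve to chamber ratio was 1.16.

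Lymphatic-like cells lay slightly below chamber cells at 72 hpf, with a ratio of 0.934 (0.913 to 0.955), and at 48 hpf with 0.967 (0.954 to 0.980). The 72 hpf difference came to 1.00 when the S-phase cluster was left out of the chamber cells. Of the members 27 were higher and 64 lower at 72 hpf, and of 79 that reached 10 CPM none was 2-fold higher or lower, where 15.9% and 11.9% of all genes were. The median was 0.903 over the members and 1.08 over all genes read. The lowest ratios were those of *ndufab1b*, a mitochondrial acyl carrier protein (40.3 against 78.0 CPM, 0.517, 0.342 to 0.752), *ndufaf5* (0.638, 0.231 to 1.42) and *ndufa3* (0.652, 0.456 to 0.904). The highest were those of *ndufa9a* (1.52, 0.945 to 2.32), *ndufa2* (1.36, 1.06 to 1.71) and *atp5if1b* (1.29, 1.00 to 1.63). Several of these intervals reach 1, and the comparisons of blood, valve and lymphatic-like cells all share the same chamber cells.

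Within the chamber, cells in S phase had more of these transcripts. The share was 1.16% in the 1023 cells of the cluster led by *sat1a.1*, 1.23% in the 563 of the cluster led by *aqp8a.1* and 1.53% in the 376 of the S-phase cluster, all at 72 hpf. The ratio of the S-phase to the *sat1a.1* cluster was 1.31 (1.299 to 1.33), from 1.18 for Complex IV to 1.41 for the ATP synthase, and the median depth was 7675 and 5153 UMIs per cell. The G2/M cells were a separate group, not named chamber, and had 1.51% over 279 cells of 72 hpf and 1.33% over 489 of 48 hpf. The cardiomyocyte list took 0.0487% of UMIs in the S-phase and 0.0174% in the *sat1a.1* cluster. The part of depth and of these genes in the difference was not tested.

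Between 48 and 72 hpf the pooled share differed by less than 10% in chamber, valve endocardial and lymphatic-like cells. It was higher at 72 hpf in G2/M, vessel and outflow, blood and unnamed cells. The blood and unnamed shares stand above, and the 2 sets of blood cells differed in their cell types. The 72 to 48 hpf ratio was 0.971 in chamber (0.963 to 0.979), 0.972 in valve endocardial (0.959 to 0.985) and 0.938 in lymphatic-like cells (0.915 to 0.961). The first 2 directions are not firm, since the chamber ratio was 1.03 when each library was clustered alone and the valve endocardial ratio then was 1.04. The lymphatic-like ratio was not recomputed under other settings. In G2/M cells the ratio was 1.13 (1.12 to 1.14), and the vessel and outflow shares were the 1.28% and 1.66% given above. The median share per vessel and outflow cell was 1.21% at 48 hpf and 1.19% at 72 hpf, and the upper quartile was 1.39% and 1.89%. The pooled rise in that group was thus not seen in its median cell. The vessel and outflow ratio was not recomputed under other settings.

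The cells compared between the ages came from different clusters and differed in cell cycle genes. Of the 612 chamber cells at 48 hpf, 604 lay in 1 cluster that held none of the 72 hpf cells, and the valve endocardial and lymphatic-like cells also lay mostly in a separate cluster for each library. The 10 genes of an S-phase list summed to 2542 CPM at 48 hpf and 1009 at 72 hpf in chamber cells, to 1126 and 322 in valve endocardial cells and to 2126 and 228 in lymphatic-like cells. The 11 genes of a G2/M list summed to 1138 and 90.8 CPM in lymphatic-like cells. Against the 48 hpf chamber cells, the ratio of the member share was 0.884 for the *sat1a.1* cluster (0.875 to 0.893) and 1.16 for the S-phase cluster (1.15 to 1.18). The part of the cell cycle in the age comparisons was not tested.

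In chamber cells 44 members were higher and 47 lower at 72 hpf, and of 79 that reached 10 CPM, 2 were at least 2-fold higher and none 2-fold lower, where 11.5% and 6.35% of all genes were. The median ratio was 0.982 over the members and 1.02 over all genes. In valve endocardial cells 1 of 81 was at least 2-fold higher and 3 lower, where 14.4% and 7.51% of all genes were, and in lymphatic-like cells 1 of 78 was higher and none lower, where 19.9% and 13.4% were.

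Single members differed between the chamber cells of the libraries. The 2 past the fold were *cox7a1* (4.58 to 10.4 CPM, ratio 2.28, 1.51 to 3.53) and *ndufb11*, an accessory subunit of Complex I (4.90 to 10.5 CPM, 2.15, 1.44 to 3.29), both of them low. Under the 12 other settings they were past the fold in 10 and 9, with lowest values of 1.72 and 1.43. The next was *ndufb9* (69.1 to 112 CPM, 1.62). At the other end were *uqcrc2a*, a core protein of Complex III (56.3 to 33.1 CPM, 0.588), *cox6b2* (574 to 354 CPM, 0.617) and *atp5md*, a small ATP synthase subunit (163 to 103 CPM, 0.633). Each of these 6 kept its direction in all 12 settings.

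The mitochondrial genome's own 13 protein genes were lower in sum in the 72 hpf library. Their pooled share went from 0.828% to 0.372% in chamber (ratio 0.450), from 0.887% to 0.360% in valve endocardial (0.406) and from 1.04% to 0.418% in lymphatic-like cells (0.401). The nuclear genes per mitochondrially encoded UMI therefore went from 1.59 to 3.42, from 1.73 to 4.14 and from 1.22 to 2.85. In chamber cells the Complex IV core genes *mt-co1* (1216 to 550 CPM) and *mt-co2* (1735 to 592 CPM) and the Complex III gene *mt-cyb* (1619 to 857 CPM) were all lower, whereas the low genes *mt-nd4l* (24.2 to 29.6 CPM), *mt-nd6* (3.95 to 6.24 CPM) and *mt-atp8* (15.6 to 16.3 CPM) were not. The sum was lower in all 3 of these groups and was not limited to them. It went from 1.28% to 0.553% in blood, from 0.805% to 0.372% in G2/M cells and from 1.05% to 0.483% in vessel and outflow cells. Over the whole library it went from 0.853% to 0.426%, and age and library cannot be told apart in it.

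**Figure D4:**
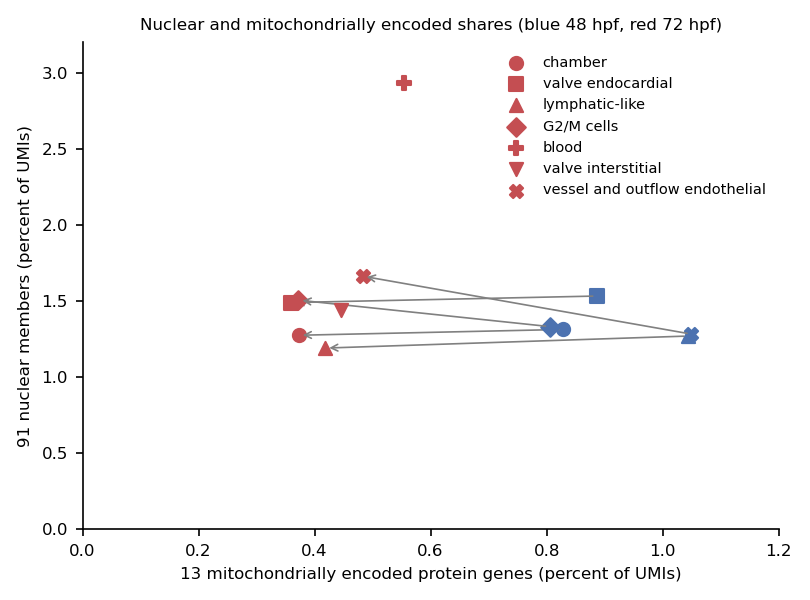
Share of UMIs in the 13 mitochondrially encoded protein genes (horizontal axis, percent) against the share in the 91 nuclear genes (vertical axis, percent) for each group and library, with arrows from 48 to 72 hpf. The arrows of the chamber, valve endocardial and lymphatic-like cells run to the left, from between 0.828% and 1.04% to between 0.360% and 0.418%, with little change in height.

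In blood cells at 72 hpf the mitochondrially encoded genes took 0.553% of UMIs, 1.49 times the chamber share (1.47 to 1.51), and 5.30 nuclear UMIs came with each mitochondrially encoded one. None of the 12 mitochondrially encoded genes that reached 10 CPM was 2-fold higher in blood than in chamber cells. Over cells of all depths, the nuclear and the mitochondrially encoded subunits thus differed unequally, by 2.30-fold and 1.49-fold. In the band of nearer depth described above, the nuclear share was 2.17% in blood and 1.42% in chamber cells at 72 hpf. The mitochondrially encoded share was not computed in that band, so whether the inequality holds at nearer depth was not tested.

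Isoform use separated valve from chamber cells most sharply in the *cox4* family, whose product is the regulatory subunit 4 of Complex IV. In mammals *COX4I2* is the lung isoform and responds to low oxygen, while *COX4I1* is made in nearly all cells. The gene *cox4i2* (ENSDARG00000022509) stood at 99.7 CPM in chamber cells at 48 hpf and 76.0 at 72 hpf, at 98.4 and 54.7 in lymphatic-like cells, and at 11.6 and 0.767 in valve endocardial cells, where 2 UMIs were left at 72 hpf. Valve interstitial cells had 22.2 CPM and blood cells 3.03 at 72 hpf, and the 15 blood cells of 48 hpf had 0 UMIs. The level was thus higher in chamber and lymphatic-like cells than in valve endocardial, valve interstitial and blood cells at each age at which these were read.

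As a share of all UMIs of the *cox4* family, *cox4i2* made up 14.98% in chamber cells at 48 hpf (13.9 to 16.1%) and 11.8% at 72 hpf (11.1 to 12.6%). In valve endocardial cells it made up 1.61% (1.15 to 2.19%) and 0.0988% (0.0120 to 0.356%). In lymphatic-like cells it made up 14.3% (12.6 to 16.2%) and 7.60% (5.43 to 10.3%), and in blood at 72 hpf 0.328% (0.206 to 0.496%). A UMI of it was found in 34.1% of chamber cells and 0.546% of valve endocardial cells at 72 hpf, at median depths of 5555.5 and 6263.5, and in 4.38% of the deeper blood cells. The 72 hpf shares of valve endocardial and blood cells rested on 2 and 22 UMIs, and their intervals overlapped. The valve to chamber ratio of *cox4i2* was 0.0101 (0.00122 to 0.0366), and 0.00587 to 0.106 under the 13 other settings, with the highest at a coarser clustering (resolution 0.3). The blood to chamber ratio was 0.0399 (0.0249 to 0.0608), and 0.0282 to 0.0809. Of the 22 *cox4i2* UMIs in blood cells, 8 lay in the 25 cells led by *tmem88a* and 8 in the 60 cells led by *mpx* and *col5a3a*. By contrast *cox4i1* was at 775 CPM in valve endocardial and 566 in chamber cells at 72 hpf.

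The level of *cox4i2* was not even within the chamber. At 72 hpf it was 91.3 CPM in the *sat1a.1* cluster, 72.4 in the *aqp8a.1* cluster and 51.5 in the S-phase cluster. Among groups not named chamber, G2/M cells had 52.9 CPM at 48 hpf and 66.0 at 72 hpf. Vessel and outflow endothelial cells had 65.5 and 16.8. The third *cox4* gene, *cox4i1l*, had 13 UMIs in all.

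**Figure D5:**
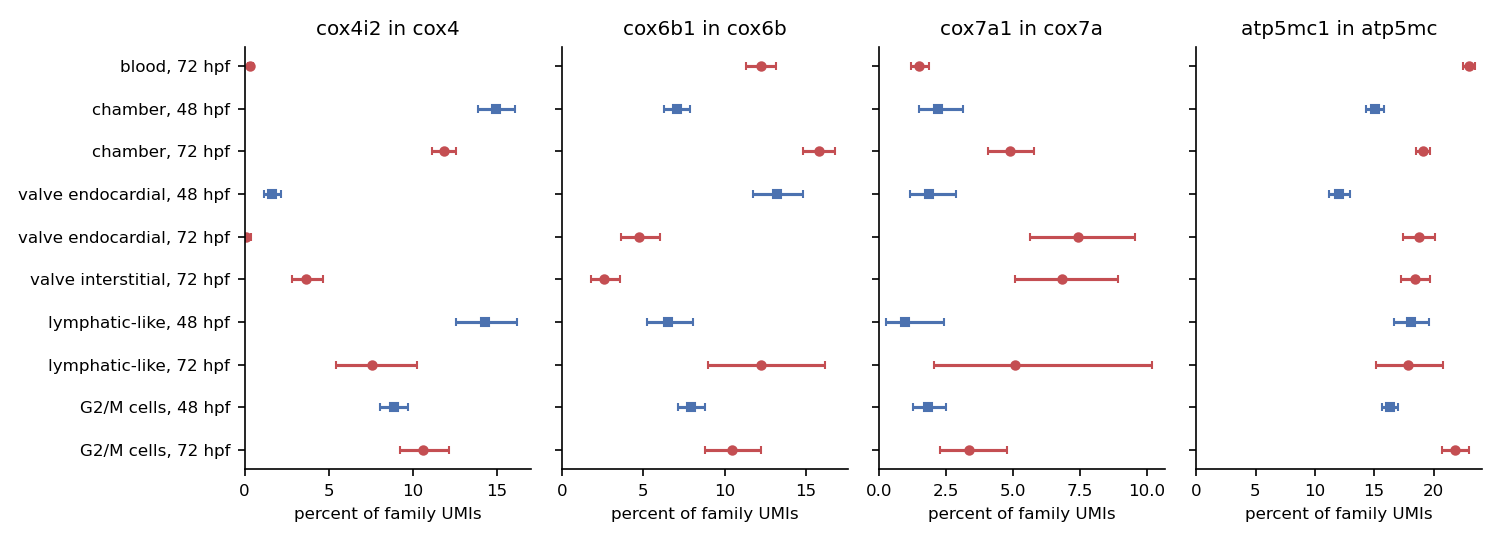
Share of the family's UMIs, in percent, taken by *cox4i2* among *cox4* genes, *cox6b1* among *cox6b* genes, *cox7a1* among *cox7a* genes and *atp5mc1* among *atp5mc* genes, by group, with blue for 48 hpf, red for 72 hpf and exact 95% intervals as lines. For *cox4i2* the chamber points lie at 14.98% and 11.8% and the valve endocardial points at 1.61% and 0.0988%. The *cox7a* genes leave out *COX7A2*, which is written in capitals.

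The *cox6b* family also shifted, in opposite directions in the 2 endocardial groups. Subunit 6B lies between the monomers of a Complex IV dimer. The gene *cox6b1* went from 43.5 to 66.3 CPM in chamber cells (ratio 1.53, 1.33 to 1.76) while the more abundant *cox6b2* went from 574 to 354, so that *cox6b1* rose from 7.04% (6.26 to 7.89%) to 15.8% (14.8 to 16.8%) of the family. In valve endocardial cells *cox6b1* went from 74.9 to 24.6 CPM (0.328, 0.245 to 0.433) and *cox6b2* from 492 to 495, and the share of *cox6b1* fell from 13.2% (11.7 to 14.8%) to 4.73% (3.659 to 5.996%). At 72 hpf the valve to chamber ratio of *cox6b1* was 0.370 (0.283 to 0.478), and 0.249 to 0.453 under the 13 other settings. Valve interstitial cells were lower still at 12.6 CPM, lymphatic-like cells stood at 60.5 and blood cells at 85.1. The blood to chamber ratio was 1.28, and 0.760 to 1.44 under other settings. At 48 hpf the order of valve and chamber was the reverse of that at 72 hpf.

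The gene *cox7a1*, whose mammalian counterpart is the heart and muscle isoform of subunit 7A, was low in every group. It was higher at 72 hpf in chamber, valve endocardial and lymphatic-like cells. In chamber cells it made up 2.21% of the *cox7a* UMIs at 48 hpf (1.48 to 3.15%) and 4.88% at 72 hpf (4.08 to 5.78%). Shares of this family leave out *COX7A2*, which is written in capitals. In valve endocardial cells it stood at 5.95 and 21.1 CPM (ratio 3.55, 2.09 to 6.25), or 1.87% and 7.41% of the family. In lymphatic-like cells it stood at 1.82 and 10.1 CPM, on 4 and 7 UMIs. Valve interstitial cells had 18.1 CPM and blood cells 12.1 at 72 hpf. The valve endocardial cells, highest at 72 hpf, were also the group with the highest sum of cardiomyocyte genes. That sum lay almost wholly in *tnnt2a* and *mb*. The muscle gene *myl7* was at 0.767 CPM in them, against 253 in valve interstitial and 30.7 in chamber cells at 72 hpf. The part of cardiomyocyte transcripts in the *cox7a1* level was not tested. Its abundant relatives in blood were *cox7a2l*, at 37.9% of the family against 25.7% in chamber cells, and *cox7a2a*, at 487 against 148 CPM.

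The heart and muscle isoforms of subunits 6A and 8 were almost absent from the endocardium. The gene *cox6a2* (ENSDARG00000054588) had 45 UMIs in all. In chamber cells there were 0 at 48 hpf and 2 at 72 hpf, the latter being 0.0408% of the *cox6a* UMIs (0.00495 to 0.147%). Valve endocardial cells had 0 of 1228 *cox6a* UMIs at 72 hpf, which allows up to 0.2999%, and lymphatic-like cells had 0 of 233, which allows up to 1.57%. Its partner *cox6a1* stood at 402 CPM in chamber cells and 828 in blood cells at 72 hpf. Outside blood, 3 of the *cox6a* UMIs were *cox6a2* and the others were *cox6a1*.

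Most of the *cox6a2* UMIs came from a few blood cells. Of the 45, 28 lay in the 15 blood cells of 48 hpf, and 27 of these in the 7 neutrophil-like cells, all 7 of which had at least 1. There *cox6a2* made up 26.7% of the *cox6a* UMIs (18.4 to 36.5%), or 136 CPM. The 388 blood cells of 72 hpf had 14 UMIs in 13 cells, 9 of them in the group led by *runx3* and *ccr9a*, against 6019 *cox6a* UMIs. With 7 cells of 1 library, chosen after their values were seen, this is a description only. The subunit 8 gene *cox8b* stood at 0.986 CPM in chamber cells and 7.59 in blood cells at 72 hpf, where *cox8a* stood at 217 and 646.

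In the *ndufa4* family *ndufa4l* was the main gene everywhere, at 267 CPM in chamber, 359 in valve endocardial, 341 in lymphatic-like and 499 in blood cells at 72 hpf. The gene *ndufa4* itself went from 12.5 to 0.767 CPM in valve endocardial cells (ratio 0.0615, 0.00721 to 0.236, on 42 and 2 UMIs) and lay at 1.42 and 1.56 in chamber cells. Together with *cox4i2* and *cox6b1* it made up the 3 members at least 2-fold lower at 72 hpf in valve endocardial cells. The *cox5b* family had only *cox5b2* among the members, with 12 UMIs in blood and 6 in chamber cells at 72 hpf, since *COX5B*, at 1125 and 286 CPM, is written in capitals. The *cox5a* pair kept its proportions, with *cox5aa* at 68.2% in chamber and 67.5% in blood cells.

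The ATP synthase families showed milder shifts. Its subunit c genes encode the same mature protein in mammals and differ in their import sequence. The share of *atp5mc3a* fell from 39.5% (38.4 to 40.5%) to 31.5% (30.8 to 32.2%) of the *atp5mc* UMIs between 48 and 72 hpf in chamber cells and from 37.0% to 26.1% in valve endocardial cells, and was 20.3% in blood. That of *atp5mc1* went from 15.02% to 19.1% in chamber and from 12.1% to 18.8% in valve endocardial cells, and was 23.0% in blood. In G2/M cells the 2 genes moved the same way, from 36.4% to 30.2% and from 16.3% to 21.8%.

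The ATP synthase subunit e pair set 1 of the exceptions in blood. The gene *atp5mea* was at 49.5 CPM in blood and 68.0 in chamber cells (ratio 0.728, 0.641 to 0.825), while *atp5meb* was at 479 and 244, and *atp5mea* made up 9.37% of the pair in blood and 21.8% in chamber cells. The *atp5mea* ratio ranged from 0.566 to 0.815 under the 13 other settings. In lymphatic-like and valve endocardial cells *atp5mea* made up 21.2% and 22.3%. The *ndufab1* pair was nearly even, with *ndufab1a* at 54.3% in blood and 52.3% in chamber cells. The *atp5if1* pair was split alike in these groups, with *atp5if1b* at 41.6% and 40.1%, but it stood at 50.9% in valve endocardial cells (47.0 to 54.7%). Copies of a gene can share reads, so the split within a family is less certain than its sum.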

How the data were processed

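The files the authors deposited hold UMI counts of droplet 3′ libraries, not normalized. The submitters' processing notes name STARsolo, Scanpy and danRer11, with versions not given in the sources used here. All values were whole numbers, and all barcodes in the files were used. For clustering, each cell was brought to a total of 10000, log values were taken, and 2000 variable genes, 30 principal components and 15 neighbours entered Leiden clustering at resolution 0.6 (scanpy 1.11.5, leidenalg 0.10.2, igraph 0.11.9, Python 3.11, numpy 2.4.6, scipy 1.17.1, pandas 2.3.3, matplotlib 3.10.9). No batch correction was applied. Clusters were named by whichever cell type list had most, and at least 3, of the 50 leading genes, counting genes detected in 25% or more of the cluster. A cluster with more S-phase or G2/M genes was named for the cell cycle, unless the chamber list led the cell types: 2 clusters with more S-phase than chamber genes (6 against 4 and 7 against 5) thus kept the name chamber. The 17 clusters were named with thresholds set after the data were seen. The fold counts ignore sampling: genes at 10 CPM or more in either group were read at a ratio of 2. A low gene could thus be read through its higher group alone.

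Shares and CPM are pooled over the cells of a group, with exact Poisson or Clopper-Pearson intervals and exact conditional intervals for ratios. The interval code was tested on simulated data. PCR copies were collapsed by UMI, so intervals cover counting of molecules alone. No doublet caller was run. Cells outside the blood clusters with UMIs of at least 3 blood genes, and cells inside them with UMIs of at least 3 endothelial genes, were candidate doublets, left in except in 1 alternative. The members and lists were chosen with earlier results of these data known. Genes were named by rule: the 3 highest members per complex, the 3 largest and 3 smallest ratios per comparison at 10 CPM or more, and all copies in 12 families. Other genes were named after their values were seen. Gene lists came from general knowledge.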

Additional observations from a re-analysis of the deposited data

How the results depend on the processing

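No paired analysis was possible because each age has 1 library and no result comes from a test. The same 7 results were recomputed under 10 alternatives set beforehand and 3 chosen after seeing the data (the depth band, leaving out assembly factors and inhibitors, and leaving the S-phase cluster out of the chamber). The valve to chamber ratio stayed above 1 and the blood to chamber ratio above 1.5 in all of them. In the blood to chamber ratio, the mean of per-cell shares gave 2.14, thinning each cell to 2000 UMIs 2.17, leaving out globins 2.33, ribosomal proteins 2.58 or candidate doublets 2.36, the depth band 1.53, leaving out assembly factors and inhibitors 2.28, and leaving out the S-phase cluster 2.47. The count of members at least 2-fold higher in blood was 11 in the depth band and 44 to 69 otherwise. Of all genes read, 26.8% were past that fold in the main setting and 17.9% in the depth band. That share is not given for the other settings, so their counts cannot be set against it. The valve to chamber ratio was 1.19 thinned, 1.12 without ribosomal proteins, 1.103 in the depth band and 1.25 without the S-phase cluster. The lymphatic-like to chamber ratio was 0.877 without ribosomal proteins and reversed to 1.00 without the S-phase cluster.

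The change with age was not stable. The chamber ratio reversed to 1.03 with each library clustered alone, 1.05 without ribosomal proteins and 1.06 in the depth band, and was 0.995 at resolution 1.0, 0.963 per cell, 0.942 thinned and 0.904 without the S-phase cluster. The valve endocardial ratio reversed to 1.09 at resolution 0.3, 1.07 at 1.0 and 1.04 with each library alone, and was 0.958 per cell, 0.986 without ribosomal proteins, 0.986 without the tenth of cells highest in cardiomyocyte genes and 0.999 in the depth band. The cause was not tested. The share of *cox6a2* in chamber cells rests on 2 UMIs and was 0 thinned and 0 in the depth band. At resolution 0.3 the chamber ratio with age had no value, as under 50 chamber cells were left at 48 hpf, and the depth band held 14 lymphatic-like cells at 72 hpf, too few for theirs. Candidate doublets numbered 577 at 48 hpf and 229 at 72 hpf, 35 of them blood cells. Members at a few CPM, such as *cox7a1*, *ndufa4* and *cox6a2*, are limited by their counts.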
